A study of Mus musculus with 3 samples.

Results

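Dendritic cells (DCs) were examined among the CD45+ leukocytes of the muscularis externa, the muscle coat of the mouse small intestine, by single-cell RNA sequencing. Members were chosen by measured values. A cell was taken as a DC when it held at least 2 unique molecular identifiers (UMIs, each standing for 1 counted RNA molecule) of the 5 genes Flt3, Zbtb46, Cd209a, Ccr7 and Fscn1, when at least 2% of its UMIs came from the MHC class II genes Cd74, H2-Aa, H2-Ab1 and H2-Eb1, when it held fewer than 5 UMIs of the complement genes C1qa, C1qb and C1qc, and when it had no UMI of the lymphocyte genes Cd79a, Ms4a1 and Cd3e. This selected 106 of 4102 cells. Of these, 13 held at least 2 UMIs of Ccr7 and Fscn1 together and are called mature DCs, and the remaining 93 are called other DCs.

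All cells came from wild-type C57BL/6J mice aged 12 weeks, which carried no transgene or deletion. The groups were naïve tissue, tissue 24 h after intestinal manipulation and tissue 72 h after it, a surgical handling of the bowel that inflames its muscle layer. Each time point is 1 library of cells pooled from several mice. Time point and library therefore cannot be told apart, no test between groups was possible, and every interval below is a 95% interval that covers counting error only.

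DCs take up antigen in a tissue, cut it into peptides and show these to T cells on MHC molecules. The conventional lineages are cDC1, which need Batf3 and Irf8 and carry Xcr1 and Clec9a, and cDC2, which carry Sirpa and, in many tissues, Cd209a, Clec10a and Mgl2. On maturation DCs switch on the chemokine receptor Ccr7, which guides them along lymphatics to the lymph node, and the actin-bundling protein Fscn1, together with costimulatory molecules and the chemokines Ccl17 and Ccl22, which attract T cells through Ccr4.

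The naïve library held 652 cells (median 2134.5 UMIs per cell), the 24 h library 2211 cells (median 4669) and the 72 h library 1239 cells (median 3295). DCs were deeper than the median cell, with medians of 6452, 6492 and 7051 UMIs, and a rule of at least 2 UMIs favours deep cells. The macrophages with at least 5 C1q UMIs that are used below had medians of 3219, 6663 and 5624 UMIs. Each pair of libraries shared 1 cell barcode, and 0 DCs carried a shared barcode.

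DCs made up 9 of 652 cells in the naïve library, or 1.38% (interval 0.633 to 2.60%). At 24 h they were 43 of 2211 cells, or 1.94% (1.41 to 2.61%). At 72 h they were 54 of 1239 cells, or 4.36% (3.29 to 5.65%), and this interval lay above both others. These shares depend on how many other leukocytes each library held. Over the cells that passed the MHC class II and lymphocyte conditions alone, DCs were 8.11% (3.77 to 14.8%) in the naïve library, 13.5% (9.96 to 17.8%) at 24 h and 13.9% (10.6 to 17.8%) at 72 h, and these 3 intervals overlapped.

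**Figure D1:**
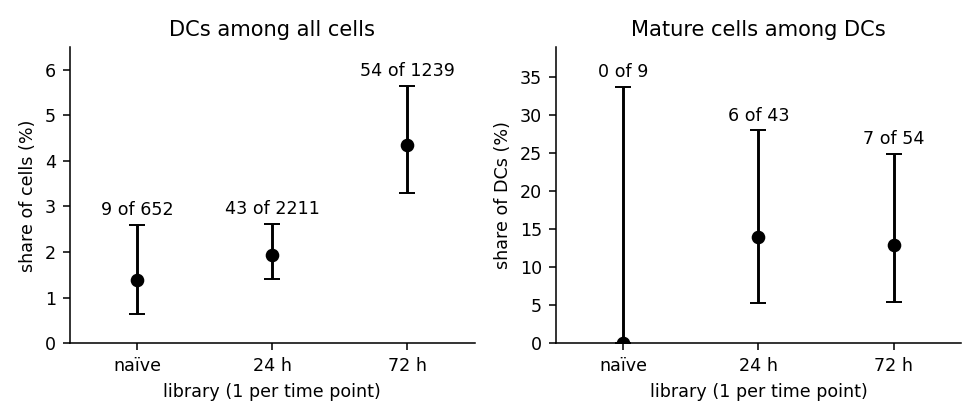
Share of DCs among all cells (left, %) and of mature cells among DCs (right, %) in each of the 3 libraries, with exact Clopper-Pearson intervals and the counts behind each share. The DC share is highest at 72 h (54 of 1239 cells), while the mature share has wide intervals that overlap in all 3 libraries.

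No mature DC was found among the 9 naïve DCs, for which the exact interval reaches 33.6%. At 24 h, 6 of 43 DCs were mature, or 14.0% (5.30 to 27.9%), and at 72 h 7 of 54, or 12.96% (5.37 to 24.9%). The difference between the libraries was not detectable at these numbers of cells.

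The limits of the rule did not fall in gaps. With the other conditions met, 31 cells held 1 UMI of the 5 DC genes and stayed outside, while 15 cells held 2 and 17 held 3. For C1q, 20 DCs held 4 UMIs and 13 cells held 5. In all, 46 cells failed on C1q alone, 31 of them at 72 h. B cells (at least 2 UMIs of Cd79a and Ms4a1), which do not make C1q, held the 3 C1q genes at 1019 CPM (UMIs scaled to a common library total) without manipulation, and at 1620 and 4334 CPM in the 24 h and 72 h libraries. These sums rested on few cells, as the median B cell held 0, 1.5 and 1 C1q UMIs, and 14 of 64 B cells at 72 h held 1183 of the 1234 UMIs. With the limit at 3 UMIs the DC share became 1.22% at 24 h and 2.26% at 72 h, and with no limit 2.62% and 6.86%. Of the mature DCs, 2 held exactly 2 UMIs of Ccr7 and Fscn1, and 2 further DCs just outside held 1.

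The genes of the rule describe how cells entered it and are not a finding. Cd209a, a C-type lectin, was found in 80 of the 93 other DCs with a median of 6 UMIs per cell and in 0 of the 13 mature DCs. Flt3, the receptor for the growth factor that maintains DCs, was found in 34 other and 4 mature DCs. Zbtb46, a transcription factor of conventional DCs, was found in 27 other and 2 mature DCs. Of the other DCs, 17 held fewer than 2 UMIs of Cd209a. Ccr7 and Fscn1 summed to 102 and 150 UMIs in the mature DCs, and to 1 UMI each in the other DCs.

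Markers outside the rule were read to check the label. Ccl17, a chemokine gene known from DCs, stood at 660.5 CPM in DCs and 46 CPM in all remaining cells. Itgax, the integrin CD11c, stood at 114 CPM in DCs and 26 CPM in the remaining cells, and the mature DCs held 3 UMIs of it. Of the cDC2 list, Clec10a was held by 67 of the 93 other DCs and Mgl2 by 54. Mgl2 was held by 5 of 9 naïve cells, 16 of 37 at 24 h and 33 of 47 at 72 h. Sirpa stood at 129 CPM and Irf4 at 34.8 CPM in the other DCs. The rule favours cDC2 cells, as Cd209a is one of its genes. For the cDC1 lineage, 4 DCs held a UMI of Xcr1 or Clec9a. In 3 of these, 1 at 24 h and 2 at 72 h, Cd209a was 0 and Irf8 was 12, 19 and 27 UMIs, Naaa 13, 20 and 41 UMIs, and Tlr3 1, 2 and 2 UMIs. The fourth had 9 UMIs of Cd209a, 1 of Irf8 and 0 of Naaa. Siglech, a marker of plasmacytoid DCs, had a UMI in 2 DCs.

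Markers of other cell types were mostly low. The rule favours this, as it asked for no UMI of Cd79a, Ms4a1 and Cd3e and fewer than 5 of the C1q genes. The low B cell, T cell and macrophage genes are therefore a description of the chosen cells. Ebf1 and Pax5, which define B cells, were at 0 in both DC groups, as were Bcl11b of T cells, Eomes and Prf1 of NK cells, and Col1a1, Col3a1 and Dcn of fibroblasts. Other members of these lists were present. Ighm, the heavy chain of IgM, had 99 UMIs in 53 other DCs (150 CPM) and 1 UMI in mature DCs. Klrk1, an NK receptor, stood at 186 CPM in mature and 106 CPM in other DCs, and at 11.4 CPM in C1q Mφs. S100a8, abundant in neutrophils, stood at 186 and 141 CPM, and Prg2 of eosinophils had 4 UMIs in mature and 0 in other DCs. The 16 macrophage markers summed to between 1068 and 1818 CPM in the 5 DC groups by library and to between 10726 and 41195 CPM in C1q macrophages (Mφs), defined here as cells with at least 5 UMIs of the C1q genes, no lymphocyte gene and fewer than 2 UMIs of the DC genes. In B cells the same list summed to 5042 CPM at 24 h and 16216 at 72 h, but the median B cell held 23.3 and 23.5 per 10000 UMIs, against 14.5 and 17.7 in the other DCs, and the highest B cell at 72 h held 739.9. The naïve other DCs included 1 cell with 457 UMIs of the lysozyme gene Lyz2, while the remaining 8 held 0 to 9, so the Lyz2 level of this group was 8220 CPM with that cell and 405 CPM without it.

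Mature DCs were then set against the other DCs. Expression is the sum of a gene's UMIs over a group, scaled to CPM, and a gene is called higher or lower when the CPM ratio passed 2-fold after 10 CPM was added to both sides. Genes under 50 CPM in both groups were left out. Since Ccr7 and Fscn1 split the cells and genes move together, this is a description. Of 3239 genes, 564 were higher in mature DCs (17.4%) and 591 lower (18.2%). The mature group held 75337 UMIs, so that 50 CPM is 3.77 UMIs there, and genes near that level carry large counting error.

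The chemokine Ccl22 was among the secreted products that were higher in mature DCs. It had a lowest, median and highest value of 1, 8 and 16 UMIs in the 6 mature cells at 24 h and of 0, 3 and 8 UMIs in the 7 at 72 h. It was absent from the 9 naïve other DCs, and 3 of the 93 other DCs held it, 1 of them with 9 UMIs. Summed, this was 982 CPM in mature and 18.2 CPM in other DCs, a 54.1-fold ratio (29.2 to 109). After thinning all cells to 1500 UMIs, 8 of 13 mature and 1 of 91 other DCs kept a UMI, against 0 of 314 B cells. Thus nearly all mature cells and few other DCs held Ccl22.

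Ccl17, the second Ccr4 ligand, did not separate the groups in this way. It ranged from 0 to 44 UMIs in the mature cells at 24 h (median 4.5) and from 0 to 61 at 72 h (median 0), and 29 of the 93 other DCs held it. The ratio was 4.80-fold (3.96 to 5.80) between 2283 and 475 CPM. A single other DC at 72 h held 153 of the 314 UMIs, and the ratio was 9.16-fold without it.

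Il4i1, a secreted enzyme that oxidises aromatic amino acids, was present in all 13 mature DCs with medians of 3 UMIs at 24 h and 5 at 72 h. It was found in 6 other DCs, and the ratio was 42.1-fold (23.9 to 79.0) between 956 and 22.7 CPM. Fabp5, a carrier of fatty acids, was also found in all 13. Its median was 6.5 UMIs at 24 h (range 1 to 36) and 47 at 72 h (11 to 66), against 1 and 0 in the other DCs of the same libraries. The pooled ratio was 27.0-fold (22.01 to 33.3). The log2 ratio was 3.19 within 24 h and 5.67 within 72 h, resting on 6 and 7 mature cells. Fabp5 is not particular to DCs, as C1q Mφs held 1308 CPM.

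Further genes among the 12 with the highest ratio were Cacnb3, a calcium channel subunit (690 against 3.03 CPM), Serpinb6b, a protease inhibitor (557 against 6.06), Eno3, a glycolytic enolase (597 against 10.6), Marcksl1, a regulator of the actin cortex (1858 against 56.0), Ccl5, a chemokine (1142 against 40.9), and Tbc1d4, a regulator of vesicle traffic (611 against 18.2). Nudt17 held 21 UMIs in mature and 1 UMI in other DCs. Tnfrsf4, the costimulatory receptor OX40, held 18 UMIs in mature and 0 in other DCs, at least 52.6-fold higher when 3 counts are taken as the limit of the other group. Of the 12, only Apol7c was held by cells of 1 library alone. It had 16, 13 and 12 UMIs in 3 of the 6 mature cells at 24 h, 0 in the other 3, and 0 in all 7 mature cells at 72 h and in all 93 other DCs.

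**Figure D2:**
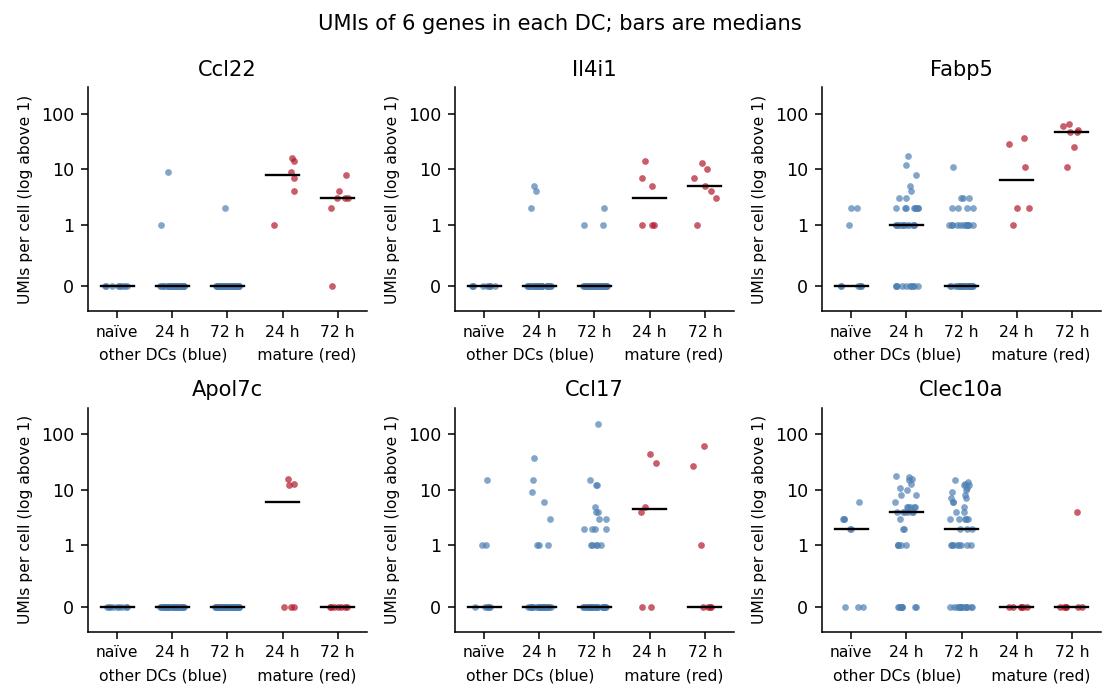
UMIs per cell (vertical axis, logarithmic above 1) of 6 genes in the other DCs (blue) and the mature DCs (red) of each library, 1 point per cell, with a bar at the median. Ccl22, Il4i1 and Fabp5 are higher in most mature cells of both libraries, Apol7c is held by 3 mature cells at 24 h alone, Ccl17 is uneven in both groups and Clec10a is held by 1 mature cell.

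A list of 32 genes known from mature DCs was read as a group. It was compiled with earlier results of these data known, and its direction is therefore no independent evidence. Of its 29 genes above the limit of 50 CPM, 28 were higher in mature DCs and 0 lower, with a median log2 ratio of 3.47 (3.78 with genes at 0 set at their limit), beside −0.08 over all 3239 genes. The exception was Id2, an inhibitor of E proteins, at 624 and 483 CPM. The list held several parts of the NF-κB pathway. Relb stood at 531 against 57.5 CPM, Traf1 at 823 against 129 CPM, and Nfkb2 at 226 against 66.6 CPM, while the inhibitor Nfkbia, from another list, stood at 863 against 336 CPM. Of the remaining NF-κB subunits, read in the transcription factor list, Rel was higher (212 against 63.6 CPM). Nfkb1 (133 against 162 CPM) and Rela (66.4 against 54.5 CPM) stayed within 2-fold. Socs2, an inhibitor of cytokine signalling, stood at 518 against 21.2 CPM and Cd63, a tetraspanin of endosomes, at 704 against 33.3 CPM.

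Since several of these genes belong to the NF-κB pathway, the 250 bases before their RefSeq start sites (build GRCm38.p6) were searched on both strands for the kappa B consensus. A match was found in 2 of the 22 genes of the list that were higher and present in the RefSeq table, and in 8.23% of all 27025 genes searched. A match of letters is no evidence of binding. The match in Nfkb2, at chr19:46304678-46304727 on the plus strand and beginning 39 bases before the start site, is shown because Nfkb2 is itself a subunit of the pathway. Capitals mark the motif.
Nfkb2: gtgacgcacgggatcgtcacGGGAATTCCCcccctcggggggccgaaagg

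Costimulatory and inhibitory ligands were mostly higher in mature DCs, with 8 of 10 genes past 2-fold upward and 1 downward (median log2 ratio 1.78). Over all genes 17.4% were higher and 18.2% lower. Cd83 stood at 478 against 57.5 CPM, an 8.31-fold ratio (5.12 to 13.5). Cd40, the receptor for T cell help, stood at 159 against 13.6 CPM, and Cd274, the inhibitory ligand PD-L1, at 239 against 15.1 CPM. The ratios of Cd80 (3.76-fold, 1.18 to 10.4) and Cd86 (2.99-fold, 1.51 to 5.61) were smaller, and rested on 6 and 14 UMIs in the mature cells. Tnfrsf9 held 12 UMIs in mature and 0 in other DCs. Cd48, an adhesion ligand, was lower, at 80 against 279 CPM.

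Genes of antigen presentation divided by class. In the MHC class I list, 6 of 12 genes were higher in mature DCs and 0 lower, beside 17.4% and 18.2% over all genes. The higher genes included H2-K1 (1805 against 680 CPM), B2m (4978 against 2276 CPM), the peptide transporters Tap1 and Tap2 and the proteasome activator Psme2 (1513 against 353 CPM). In the class II processing list, which leaves out the genes of the rule, 9 of 11 stayed within 2-fold, beside 2084 of 3239 over all genes. H2-DMb1, a subunit of the peptide editor H2-DM, was lower at 319 against 1326 CPM (4.16-fold, 2.78 to 6.53), and H2-Eb2 was higher at 252 against 3.03 CPM.

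Among the genes of movement, 9 of 25 were higher and 5 lower, beside 17.4% and 18.2% over all genes. The count of lower genes is thus near the share over all genes. Tmsb4x, which binds actin monomers, stood at 55444 against 27560 CPM, Lsp1 at 3080 against 1275 CPM, Icam1 at 265 against 50 CPM and Swap70 at 319 against 31.8 CPM. Actb just missed the limit at 1.97-fold (1.84 to 2.11). Integrin Itgb2 was lower at 80 against 235 CPM. Of the chemokine receptors beside Ccr7, Gpr183, a receptor for oxysterols, was higher at 385 against 62.1 CPM, and Ccr1 and Ccr2 were lower. Of the 4 measured cytokines above the limit, Il1rn was higher (93 against 11 CPM), and Il1b (212 against 507 CPM), Tnf (0 against 58 CPM) and Tgfb1 (93 against 268 CPM) were lower. With 3 counts taken as the limit of the mature group, Tnf was at least 1.44-fold lower, so a 2-fold drop was not shown. Il6, Il10, Il12a and Il27 had no UMI in any DC.

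Genes lower in mature DCs were led by 12 genes with 0 UMIs in the 13 cells, where 3 counts are 39.8 CPM. Naaa, a lysosomal amidase, stood at 324 CPM in other DCs and was at least 8.14-fold lower. Next came Unc119 (at least 5.40-fold), Tm6sf1, Tep1, Anxa1, Cd7, the integrin Itgam (at least 3.88-fold), AB124611, Eps8, Rab24, Slfn5 and Hhex (at least 2.85-fold). The bounds are small because the mature group is small. Of the cDC2 list, 7 of 12 genes were lower and 1 higher, beside 18.2% and 17.4% over all genes. Clec10a, a lectin for galactose sugars, was found in 67 other DCs and in 1 mature cell, at 566 against 53.1 CPM (10.7-fold, 4.13 to 39.3). Mgl2, a related lectin, stood at 636 against 119 CPM (5.32-fold, 2.78 to 11.7). Cd1d1, which presents lipids, was the gene of that list that was higher (199 against 22.7 CPM). Klrd1, the NK receptor CD94, was held by 10 of 13 mature and 56 of 93 other DCs, at 385 and 306 CPM, with a ratio of 1.26 (0.822 to 1.86). Of the 14 immediate early genes, which respond within minutes to stimuli including tissue dissociation, 6 were lower and 1, Nfkbia, was higher. The shares over all genes were 18.2% and 17.4%. Fos stood at 186 against 500 CPM and Ier2 at 93 against 400 CPM.

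**Figure D3:**
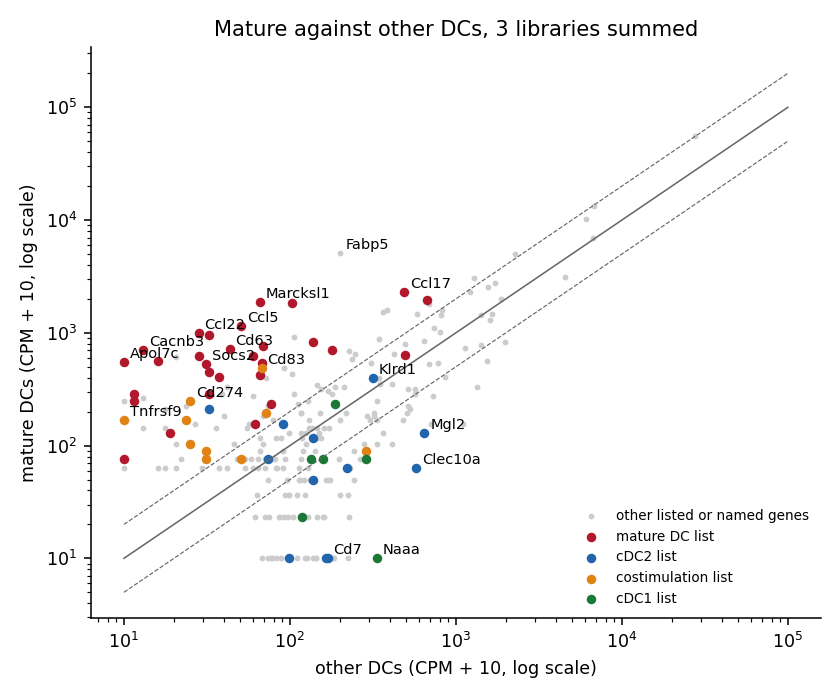
CPM plus 10 in mature DCs (vertical, log scale) against other DCs (horizontal, log scale) for the listed and named genes with at least 50 CPM in either group, without the genes of the rule. Dashed lines mark 2-fold. Genes of the mature DC list (red) and of the costimulation list (orange) lie mostly above the upper line, and Naaa, Cd7, Clec10a and Mgl2 lie below the lower line.

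Within the 24 h library alone 740 of the 1155 genes past 2-fold kept that call in the same direction, and within the 72 h library 900 did, with none past 2-fold in the opposite direction. The cells of each library are part of the sum that gave the 1155 genes, so these counts are no independent support. The 72 h library held 48304 of the 75337 mature UMIs. Spib, an Ets factor, had 10 UMIs in 5 of the 7 mature cells at 72 h and 0 at 24 h. The mature cells at 24 h were shallower, with a median of 4221 UMIs against 6496 at 72 h. The groups of 6 and 7 cells were too small to compare genes between libraries.

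The other DCs were compared between 72 h (47 cells) and 24 h (37 cells). The 9 naïve cells, with 58031 UMIs, are given as values. Of 2937 genes, 123 were higher at 72 h (4.19%) and 130 lower (4.43%). Of 12 cDC2 genes, 11 stayed within 2-fold, a share like that over all genes (2684 of 2937). They included Clec10a (723 CPM at 24 h and 493 at 72 h), Mgl2 (494 and 750) and Klrd1 (308 and 292). Cd209d was lower at 72 h (134 and 57 CPM).

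Monocyte genes were lower at 72 h in 6 of 10 cases and higher in 0, beside 4.43% and 4.19% over all genes. Their median log2 ratio was −1.71 beside −0.09 over all genes. Ly6c2, which marks inflammatory monocytes, was held by 22 of 37 cells at 24 h with up to 27 UMIs, by 1 of 47 at 72 h and by 0 of 9 in the naïve library. Its level was 415 CPM at 24 h and 2.86 CPM at 72 h. Plac8 was held by all 37 cells at 24 h (lowest 2, median 14, highest 72 UMIs) and by 28 of 47 at 72 h (0, 1 and 31), at 3092 and 490 CPM, a 6.31-fold ratio (5.34 to 7.49). Chil3 was at 98.7 CPM and 0, at least 11.5-fold lower. The same genes were read in B cells, where free RNA and expression by the B cells themselves cannot be told apart. After thinning to 1500 UMIs, 117 of 314 B cells of the 3 libraries held Plac8. These included 32 of 40 at 24 h and 17 of 60 at 72 h. Of the other DCs, 33 of 37 at 24 h and 12 of 45 at 72 h held it after the same thinning. In B cells Ly6c2 stood at 475 CPM at 24 h and 7 CPM at 72 h, and Plac8 at 2407 and 344 CPM. The lower Plac8 at 72 h was thus not particular to DCs. After thinning to 1500 UMIs, Ly6c2 was held by 8 of 37 other DCs and 8 of 40 B cells at 24 h. Before thinning, 14 of 37 other DCs held at least 2 UMIs. The B cells were uneven in monocyte genes, with a median of 29.1 and a highest value of 384.6 per 10000 UMIs for the list at 24 h. The part of free RNA in the Ly6c2 and Plac8 levels of DCs was not tested. The Ly6a antigen differed from this. It stood at 379 CPM at 24 h and 2.86 at 72 h in the other DCs, and at 191 and 172 CPM in B cells. The source of Ly6a in the B cells was not tested.

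Genes of the interferon response followed the same direction. Of 7 genes above the limit, 6 were lower at 72 h, with a median log2 ratio of −2.82. Over all genes 4.43% were lower. Isg15, a ubiquitin-like modifier, was held by 26 of 37 cells at 24 h (median 1, highest 19 UMIs), by 5 of 47 at 72 h and by 0 of 9 in the naïve library. Its level was 336 CPM at 24 h and 20 CPM at 72 h, a 16.7-fold ratio (7.78 to 42.9). Irf7, which drives type I interferon genes, stood at 182 and 17.2 CPM, and Oasl2 at 142 and 8.59 CPM. The 18 genes of the list summed to 1248 CPM in the other DCs at 24 h and 289 at 72 h. In C1q Mφs the sums were 3003 and 570 CPM and in B cells 1210 and 281 CPM, so the difference was of like direction in the 3 cell groups, and the part of free RNA was not tested.

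In the 250 bases before the RefSeq start sites, the core of the interferon-stimulated response element (2 GAAA repeats separated by any 2 bases), searched on both strands, was found in 2 of the 5 matched genes among these 6 and in 3.46% of all genes. Isg15 is shown because it had the largest ratio of the 2 genes with a match. The stretch is chr4:156200867-156200916 on the minus strand, the first match begins 78 bases before the start site, and capitals mark it. Further matches to the same pattern overlap in the bases that follow and are not marked.
Isg15: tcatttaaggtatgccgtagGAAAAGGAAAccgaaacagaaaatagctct

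**Figure D4:**
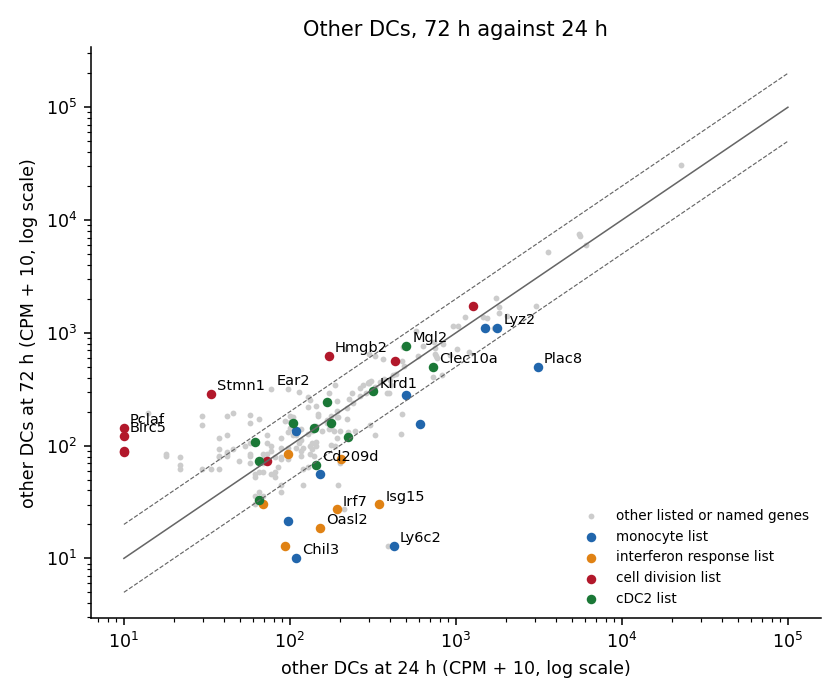
CPM plus 10 in the other DCs at 72 h (vertical, log scale) against 24 h (horizontal, log scale) for the listed and named genes with at least 50 CPM at either time, without the genes of the rule. Dashed lines mark 2-fold. Monocyte (blue) and interferon (orange) genes such as Ly6c2, Plac8 and Isg15 lie low, cell division genes (red) such as Pclaf and Birc5 lie high, and cDC2 genes (green) lie mostly between the lines.

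Genes of cell division were the leading group among those higher at 72 h, with 6 of 9 past 2-fold and 0 lower. Over all genes 4.19% were higher and 4.43% lower. Pclaf, a partner of the replication clamp, held 47 UMIs at 72 h and 0 at 24 h, at least 11.4-fold higher. Birc5, a part of the chromosomal passenger complex, held 39 and 0 UMIs, and Ube2c, a mitotic ubiquitin enzyme, 65 and 1 UMIs. Stmn1, which destabilises microtubules, stood at 278 and 23.7 CPM (11.7-fold, 5.20 to 32.7). The UMIs were concentrated. Over the 8 genes Mki67, Top2a, Pclaf, Birc5, Cdk1, Ccnb2, Rrm2 and Tyms, 9 of 47 cells at 72 h held at least 5 UMIs (lowest 5, median 17, highest 47), and these cells held 92.7% of the UMIs of the 8 genes. The remaining 38 held at most 2. At 24 h 0 of 37 cells reached 5 and the highest held 1, and in the naïve library 1 of 9 held 10.

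These 9 cells were 19.1% of the other DCs at 72 h (9.15 to 33.3%), and the exact interval of 0 of 37 at 24 h reaches 9.49%, so the intervals overlap slightly. Among C1q Mφs at 72 h the share was 2.06% (0.993 to 3.76%), or 10 of 485. After thinning to 1500 UMIs, at least 2 UMIs remained in 6 of 45 other DCs at 72 h, 0 of 37 at 24 h and 8 of 470 C1q Mφs at 72 h. Of the 9 cells, 7 held at least 2 UMIs of Cd209a. They were deeper than the remaining other DCs, with a median of 9526 against 6920.5 UMIs. Without the cells that reached 5 UMIs, 113 genes were higher at 72 h and 170 lower.

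**Figure D5:**
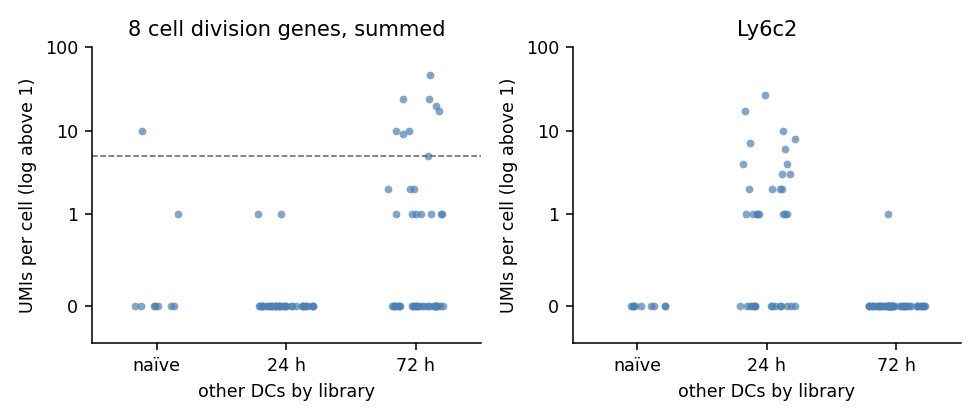
UMIs per cell (vertical axis, logarithmic above 1) in the other DCs of each library, for the sum of 8 cell division genes (left, dashed line at 5 UMIs) and for Ly6c2 (right), 1 point per cell. At 72 h 9 of 47 cells reach the line on the left, and on the right 22 of 37 cells at 24 h and 1 of 47 at 72 h hold Ly6c2.

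Several genes outside these groups were higher at 72 h. Id2 stood at 707 against 205 CPM (3.44-fold, 2.55 to 4.74) and at 345 CPM in the naïve cells. Ear2, a ribonuclease, stood at 309 against 67.1 CPM and Marcks at 309 against 86.9 CPM. H2-Oa and H2-Ob, the subunits of H2-O, which restrains H2-DM, were at 286 against 103 CPM and 106 against 27.6 CPM. The lysosomal proteases Ctsl and Lgmn were lower. Ccl17 was at 641 against 288 CPM, but without the single cell with 153 UMIs it was at 212 CPM at 72 h and the ratio was 0.736, so its direction rested on that cell.

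Finally, DCs were set against the C1q Mφs of the same libraries (1523 cells). Of 2907 genes, 233 were higher in DCs (8.02%) and 297 lower (10.2%). The rule separated the groups by C1q, the DC genes and the class II condition, which the Mφs did not have to meet. The 4 class II genes of the rule took 5.54% of UMIs in DCs and 1.096% in Mφs at 24 h, and 6.16% and 3.36% at 72 h. In the naïve library the order was reversed, with 6.59% in DCs and 7.66% in Mφs. The libraries contributed different shares of each group, with 925 of the 1523 Mφs from 24 h. Within the 24 h library 417 and within the 72 h library 422 of the 530 genes kept their call. These cells are part of the sums that gave the 530 genes, so the counts are no independent support.

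Class II processing genes were higher in DCs in 6 of 11 cases, beside 8.02% over all genes. The class II condition favours this count, which is given as a description. Against the 531 Mφs that also met the 2% condition, 4 of 11 were higher (H2-DMb2, H2-Oa, H2-Ob and Ciita) and 3 lower, and the ratio of H2-DMb2 was 15.6-fold. H2-DMb2 stood at 651 against 23.0 CPM (28.3-fold, 24.1 to 33.5), H2-Oa at 205 against 5.39 CPM (38.1-fold, 27.5 to 53.5), and Ciita, the master activator of class II genes, at 341 against 54.1 CPM. The proteases Lgmn (107 against 1409 CPM) and Ctsl were lower. B cells also held H2-DMb2, at 358 to 792 CPM by library. Of the cDC2 list, 7 of 11 genes were higher and 1 lower, beside 8.02% and 10.2% over all genes. Klrd1 stood at 314 against 7.55 CPM, Cd7 at 143 against 5.50 CPM, Mgl2 at 583 against 83.4 CPM and Clec10a at 514 against 85.4 CPM. The other leading genes were Ccl17 (660.5 against 16.8 CPM), Ccl22, Il4i1, Siglecg (114 against 1.94 CPM), Kmo, an enzyme of tryptophan breakdown (144 against 5.93 CPM), and Ppp1r14a (114 against 3.88 CPM).

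Lower in DCs were 12 of 13 macrophage markers and 9 of 10 chemokines outside the mature DC list, beside 10.2% over all genes. Their median log2 ratios were −3.27 and −2.86 beside 0.07 over all genes. Apoe stood at 813 against 11656 CPM, the transcription factor Maf at 4.08 against 276 CPM, Arg1 at 23.1 against 776 CPM and Spp1 at 92.4 against 2066 CPM. The anaphylatoxin receptors C3ar1 (10.9 against 308 CPM) and C5ar1 (17.7 against 392 CPM) were also lower, as were Pf4, Chil3, Thbs1 and Ccl24. Ccl2 stood at 61.2 against 932 CPM and Ccl6 at 799 against 6800 CPM. Of the interferon list, 8 of 11 genes were lower in DCs, and 4 of 9 against the 531 Mφs. The counts of the macrophage and chemokine lists were the same against those Mφs.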

How the data were processed

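CD45+ cells of 3 libraries, 1 per time point, were analysed. Per the labels, the authors counted UMIs with Cell Ranger 3.0.2 against GRCm38/mm10. The deposited values are raw UMI counts per gene and cell (14148 genes), filtered by the authors and not normalized, and no further cell filter was applied. Doublets were kept in the main setting. The members and the gene lists were chosen with earlier results of these data known.

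Counts were summed per group and scaled to CPM. Intervals were exact Poisson, exact conditional Poisson for ratios, and Clopper-Pearson for shares, at 95%. They cover counting error only. For a gene at 0 in a group, 3 counts were used for the printed bounds and for the median with genes at their limit. Calls past 2-fold used the 0 with 10 CPM added. Some genes at 0 in mature DCs were therefore counted as lower with a bound under 2-fold, among them Tnf (1.44), Rara (1.67) and Mrc1 (1.98). Named genes were those in 28 lists, and the 12 highest and 12 lowest ratios for mature against other DCs, or 10 and 10 for the other comparisons, with at least 100 CPM in either group and without the 15 genes of the rule. The examples given from the lists were picked after their values were seen.

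The intervals were tested on simulated Poisson counts drawn from the summed profile of the DCs. Differences between cells were left out, so that test does not cover genes as uneven as Ccl17. Alternatives included thinning to 1500 UMIs and removing the 54 cells with the highest Scrublet scores (scanpy 1.11.5), and others were added after seeing the data. Numpy 2.4.6, scipy 1.17.1 and pandas 2.3.3 were used. Promoter sequences are from RefSeq, build GRCm38.p6.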

Additional observations from a re-analysis of the deposited data

How the results depend on the processing

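The share of DCs depended on the C1q limit. With fewer than 3 UMIs allowed it was 1.22% at 24 h and 2.26% at 72 h, and with no limit 2.62% and 6.86%. The mature shares and the naïve DC share stayed within their intervals under all alternatives run. Numbers of genes past 2-fold depended on the limit for low values. For mature against other DCs they were 300 higher and 263 lower at 100 CPM or more, 1221 and 2084 with no limit, and 1445 and 1008 after thinning to 1500 UMIs. For other DCs at 72 h against 24 h they were 49 and 49, 534 and 455, and 502 and 692, and 212 genes were lower with a pseudocount of 1 CPM. For DCs against C1q Mφs, 123 were higher at 100 CPM or more, and 421 were higher and 530 lower with no limit. Thinning leaves fewer UMIs, and elsewhere the cause was not tested. Of 448 ratios of named genes under these alternatives 0 reversed, 393 stayed within their counting interval and 55 moved beyond it. The interval was redefined after a first comparison, under which 306 of these stay and 142 move, because that interval had left out the added 10 CPM. With 1 library per time point, leaving out a replicate was not possible, and no library held the planned minimum of 20 mature DCs, so the within-library ratios of mature DCs rest on 6 and 7 cells. Fabp5 had log2 ratios of 3.19 at 24 h and 5.67 at 72 h, and Apol7c was 0 at 72 h. Without the dividing cells the log2 ratios of Pclaf and Birc5 at 72 h against 24 h were 1.097 and 0.46. The settings without dividing cells, without Ly6c2 cells, with 2 UMIs of Cd209a and, for DCs against C1q Mφs, within each library and with Mφs of at least 2% class II UMIs (213 genes higher and 234 lower) were chosen after seeing the data. No paired analysis was possible because each group is 1 library.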
